A study of Mus musculus with 6 samples.

Results

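Progression from G1 into S phase is set by cyclin-dependent kinases (CDKs), their activating cyclins and 2 families of inhibitor proteins, and the genes described here encode both kinds of inhibitor and the D-type cyclins. Members were the table's entries whose symbol was Cdkn1a, Cdkn1b, Cdkn1c, Cdkn2a, Cdkn2b, Cdkn2c, Cdkn2d, Ccnd1, Ccnd2 or Ccnd3, which gave 10 of 54231 genes, 1 entry each. D-type cyclins are made in response to mitogens and activate CDK4 and CDK6, which phosphorylate the retinoblastoma protein and so release E2F transcription factors. The INK4 proteins, encoded by the Cdkn2 genes, bind CDK4 and CDK6 and keep the cyclins off. The CIP/KIP proteins, encoded by the Cdkn1 genes, inhibit cyclin E and cyclin A complexes of CDK2 and can also help to assemble cyclin D with its kinase.

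RNA was sequenced from mouse cultures that the labels call female germ line stem cells, a term for mitotic germ cells taken from the ovary. Of the 6 libraries, 3 came from control cultures given the solvent DMSO and 3 from cultures given C89, a compound known here by its code name only, all at 8 h. The sources used here do not give genotype, strain, donor age or dose, nor whether libraries of a group came from separate cultures, so p-values measure a spread between libraries that may be technical only. Values are the authors' normalized counts, that is read counts divided by 1 factor per library, and log2 fold changes are C89 over DMSO on the log2(normalized count + 1) scale, which understates the change of low genes.

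Libraries held 7772060 to 21763459 reads assigned to genes. The label was checked against 13 germ cell markers, of which Dazl, Dppa3, Tfap2c, Nanos3 and Figla had no read in any library, while the germ cell helicase gene Ddx4 was at 1.69 ± 0.939 in DMSO and 2.74 ± 3.16 in C89 libraries (SD, n = 3 each). The piRNA pathway gene Piwil2 was at 164 ± 16.2 and 143 ± 26.9, and Ifitm3 was at 43.5 ± 37.5 and 14.5 ± 2.00. Of the germ cell markers 5 were tested and 1 rose, Dnd1, from 11.3 ± 2.62 to 27.1 ± 4.39 (limma adjusted p = 0.0216). Of 9 oocyte and granulosa markers 3 were tested and none was called, and Zp2, Bmp15, Foxl2 and Fshr had no read. Of 12 mast cell markers 7 were tested and 5 rose, where 12.5% of all genes tested rose and 13.6% fell. The summed normalized count of the 12 was 51474 to 61560.1 in DMSO and 87808 to 101432 in C89 libraries. Kit, Gata2 and Cpa3 were the highest of them, with means of 36277, 20504 and 14092 over the 6 libraries. Fcer1a, Tpsb2 and Mcpt4 were near 0, Tpsab1 had a mean of 4.39 over the 6 libraries, and Ms4a2 and Mrgprb2 had no read. Most of the germ cell markers thus did not bear out the label, and the identity of the cells was not tested. Of 9 macrophage markers 6 were tested and 2 rose, Adgre1 and Fcgr1, with sums over the 9 of 2045 to 3046 and 4336 to 4700.5. Adgre1, Cd68 and Fcgr1 were the highest of them, and C1qb had no read. Csf1r, Mertk, C1qa, Mrc1 and Lyz2 had means of 0.705, 0.908, 1.20, 4.30 and 11.4 over the 6 libraries. Of 10 fibroblast markers 8 were tested and 3 fell, Col1a2, Fn1 and Pdgfra, and Lum and Postn had no read. The 10 summed to 1258, 2416 and 138 in the first, the second and the third DMSO library. In the C89 libraries they summed to 57.6, 95.5 and 135. Most of the sum in the first and the second DMSO library was Fn1 and Dcn. Over the 3 DMSO libraries Fn1 was at 582, 1225 and 53.3, and Dcn at 451, 714 and 9.55. The third DMSO library was thus the DMSO library with the lowest fibroblast sum. Between the first and the second DMSO library, 45.9% of genes differed beyond sampling noise. Between the third and the first it was 55.3%, and between the third and the second 40.5%. The mean chi-square against sampling noise was 32.4 and 22.2 in these pairs with the third DMSO library and 18.5 in the other pair. Among C89 libraries, the second and the third were nearly alike, with 0.816% of genes differing beyond sampling noise; the other C89 pairs had 31.2% and 37.6%.

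Of the 10 genes, 3 rose and 1 fell with C89. Cdkn1a, Ccnd1 and Ccnd2 were higher, Cdkn1b was lower, and Ccnd3, Cdkn2c and Cdkn2d did not pass the test. Cdkn1c, Cdkn2a and Cdkn2b had few or no reads. Across all 18954 genes tested with limma, 26.1% passed at an adjusted p under 0.05, 12.5% as higher and 13.6% as lower, and the median log2 fold change was -0.03. Cdkn1a, Ccnd1 and Ccnd2 had called rises of at least 1 on the log2 scale, as did 3.8% of all genes tested. Values of the 2 groups did not overlap for Cdkn1a, Cdkn1b, Ccnd1, Ccnd2 and Ccnd3, which was 5 of the 10 genes, against 40.9% of all genes tested. Cdkn1c missed the minimum mean of 1 normalized count that a gene needed to be tested, and Cdkn2a and Cdkn2b passed it through the DMSO libraries alone. In bulk RNA, fewer cells that express a gene and less RNA of it per cell cannot be told apart.

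**Figure D1:**
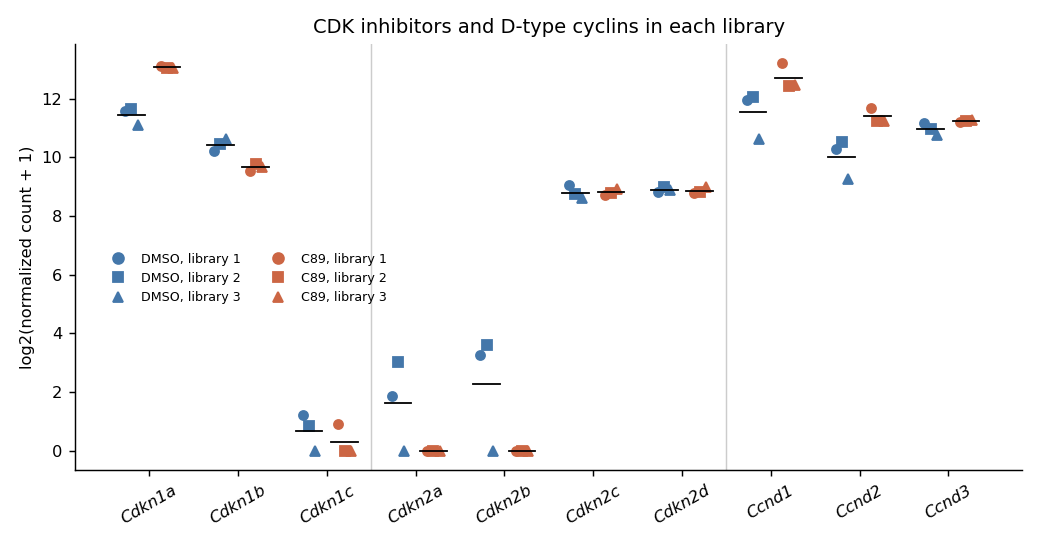
Normalized counts of the 10 genes in each of the 6 libraries on the log2(normalized count + 1) scale, with a line at each group's mean; circles, squares and triangles are the first, the second and the third library of a group. All 3 C89 libraries lie above the DMSO libraries for Cdkn1a, Ccnd1 and Ccnd2 and below them for Cdkn1b.

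Cdkn1a (ENSMUSG00000023067) encodes p21, a CIP/KIP inhibitor best known as a target of the tumour suppressor p53 in DNA damage. It had 3087, 3182 and 2177 normalized counts in the DMSO libraries and 8821, 8484 and 8405 in the C89 libraries. The C89 libraries were close to one another and all above the highest DMSO library, and the third DMSO library was the lowest. Group means were 2815 ± 555 and 8570.1 ± 221 (SD, n = 3 each), a ratio of 3.04. The log2 fold change was 1.63 (SE 0.13, limma adjusted p = 9.33e-06). It was 1.45 without the third DMSO library (adjusted p = 1.53e-04) and 1.64 with the second and the third C89 libraries combined into 1 (adjusted p = 4.88e-04). The highest limma adjusted p with 1 library left out was 0.0136, without the second DMSO library.

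Cdkn1b (ENSMUSG00000003031) encodes p27, the CIP/KIP inhibitor that accumulates in resting cells, is transcribed under FOXO factors and is removed as cells enter the cycle. Its normalized counts were 1204, 1392 and 1591 in DMSO and 741, 874 and 824 in C89 libraries. Each C89 library was below each DMSO library, and the third DMSO library, lowest for Cdkn1a, was highest for Cdkn1b. Means were 1396 ± 194 and 813 ± 66.9 (n = 3 each), a DMSO mean 1.72 times that of C89. The log2 fold change was -0.77 (SE 0.11, adjusted p = 4.85e-04), and -0.67 without the third DMSO library (adjusted p = 0.00629). With 1 library left out the limma adjusted p reached 0.0322, without the second DMSO library.

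Because these genes of one family moved in opposite directions, their upstream sequences are shown for comparison. They come from RefSeq on GRCm38.p6, whose table held 7 of the 10 genes, and the authors' own build is not stated. Each is the 250 bases before a transcript start, on the plus strand, for Cdkn1a at chr17:29090729-29090978 and chr17:29093519-29093768 and for Cdkn1b at chr6:134920151-134920400. Capitals mark the matches found on either strand to 8 motifs. These were the core of a p53 element, which is CATG, 6 bases of any kind and CATG again, the GC box GGGCGG, the CCAAT box CCAAT, the TATA box TATAAA, the FOXO element TGTTTAC, the AP-1 element TGACTCA, the E-box CACGTG and the E2F element TTTGGCGC. No 2 matches overlapped in these windows.
Cdkn1a, upstream start: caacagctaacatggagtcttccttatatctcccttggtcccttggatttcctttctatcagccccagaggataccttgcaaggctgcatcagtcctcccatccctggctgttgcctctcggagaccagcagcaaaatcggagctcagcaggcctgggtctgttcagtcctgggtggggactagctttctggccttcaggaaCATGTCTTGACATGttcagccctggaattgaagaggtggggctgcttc
Cdkn1a, downstream start: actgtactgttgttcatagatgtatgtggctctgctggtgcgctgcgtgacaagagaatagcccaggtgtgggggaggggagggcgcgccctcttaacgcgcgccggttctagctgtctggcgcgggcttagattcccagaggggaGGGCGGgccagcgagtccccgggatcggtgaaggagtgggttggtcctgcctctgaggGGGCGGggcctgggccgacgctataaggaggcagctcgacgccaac
Cdkn1b: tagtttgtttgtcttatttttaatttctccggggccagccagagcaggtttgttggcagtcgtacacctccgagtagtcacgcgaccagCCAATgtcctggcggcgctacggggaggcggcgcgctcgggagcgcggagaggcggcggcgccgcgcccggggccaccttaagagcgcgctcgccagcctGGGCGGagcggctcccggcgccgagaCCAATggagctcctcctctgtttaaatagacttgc
The upstream Cdkn1a window held 1 match to the p53 element core, 48 bases before that start and 2838 bases before the downstream start, and no other match. This core was found in 0.488% of 32817 windows of the same length in the table. The downstream Cdkn1a window held 2 GC boxes, 104 and 46 bases before the start. The Cdkn1b window held 1 GC box at 61 bases and 2 CCAAT boxes at 161 and 35 bases before the start, and no FOXO element. Among the members' windows the FOXO element was found for Ccnd3 only. GC boxes were found also for Cdkn2a, Cdkn2c, Cdkn2d and Ccnd3, none of which passed the test. GC boxes were found in 32.7% and CCAAT boxes in 33.8% of all windows. A match describes the letters only, and the RNA counts were not split by transcript start.

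Cdkn1c (ENSMUSG00000037664), an imprinted gene that encodes the third CIP/KIP protein, p57, had 2, 1 and 0 reads in the DMSO libraries and 1, 0 and 0 in the C89 libraries. No difference was detectable at this depth. The CIP/KIP reads were thus nearly all of Cdkn1a and Cdkn1b. The normalized count of Cdkn1a was 2.56, 2.29 and 1.37 times that of Cdkn1b in the DMSO libraries and 11.9, 9.71 and 10.2 times in the C89 libraries. Per kilobase of exon, with exon lengths from GENCODE M21, Cdkn1a made up 76.6%, 74.5% and 63.7% of the summed CIP/KIP level in DMSO and 93.8%, 92.6% and 92.9% in C89 libraries. The share of Cdkn1b was 28.4 ± 6.98% in DMSO and 6.90 ± 0.668% in C89 libraries (n = 3 each). The groups did not overlap, and the exact two-sided permutation test gave p = 0.1, the smallest that 3 against 3 libraries allow (0.25 adjusted over the 10 shares compared). Since Cdkn1a was higher and Cdkn1b lower in every C89 library, this outcome was fixed and adds no support.

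**Figure D2:**
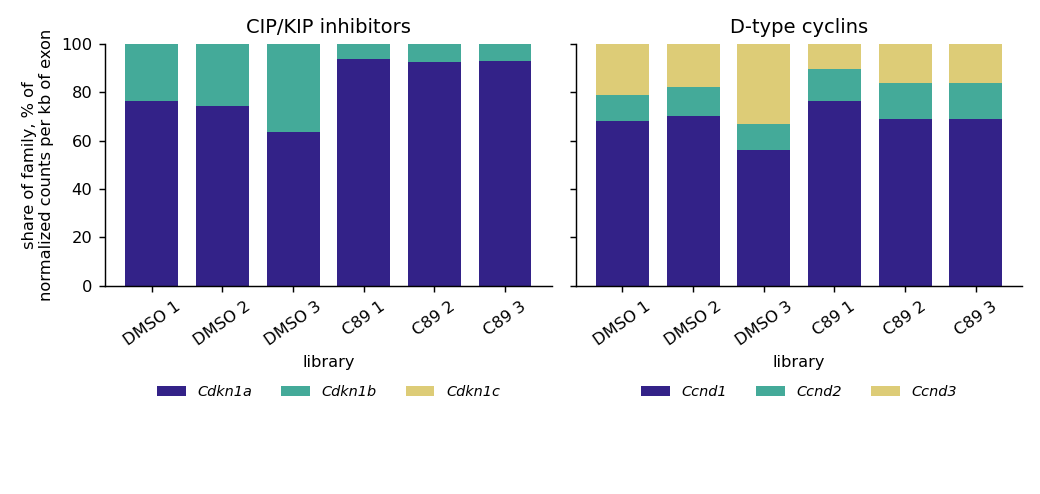
Share of each gene in the summed normalized counts per kilobase of exon of its family, in percent, for each library. Cdkn1b takes 23.3% to 36.3% of the CIP/KIP level in DMSO libraries and 6.16% to 7.44% in C89 libraries, and Cdkn1c is too low to be seen; the share of Ccnd3 among the D-type cyclins is highest in the third DMSO library.

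The INK4 genes divided into a pair with reads and a pair nearly without. Cdkn2d (ENSMUSG00000096472), which encodes p19 INK4d, was at 453, 506 and 470.5 normalized counts in DMSO and 436, 455 and 502 in C89 libraries. The ranges overlapped, and the log2 difference was -0.04 (SE 0.11, limma adjusted p = 0.826), with a 95% confidence interval of 0.831-fold to 1.14-fold. Cdkn2c (ENSMUSG00000028551), which encodes p18 INK4c, was at 528, 432 and 388 in DMSO and 424, 439 and 488 in C89 libraries. Here too the ranges overlapped. The log2 difference was 0.01 (SE 0.13, limma adjusted p = 0.954), with an interval of 0.834-fold to 1.22-fold. The intervals leave room for changes of that size in either direction, but not for the size seen for Cdkn1a.

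Cdkn2b (ENSMUSG00000073802) encodes p15, an INK4 inhibitor induced by TGF-beta, and its neighbour Cdkn2a (ENSMUSG00000044303) encodes both p16 INK4a and, in another reading frame, the p53 activator ARF, which gene counts cannot separate. Cdkn2b had 13, 14 and 0 reads in the DMSO libraries and none in the C89 libraries, and Cdkn2a had 4, 9 and 0 reads in DMSO and none in C89 libraries. Both genes were therefore seen in the first and second DMSO libraries, those with summed fibroblast markers of 1258 and 2416, and had no read in the third DMSO library or any C89 library, where these markers summed to 57.6 to 138. The part of these markers in the result was not tested. The pooled DMSO level was 5.40 times a floor of 3 reads over the C89 group for Cdkn2b and 2.60 times for Cdkn2a. This floor covers counting error only and not the spread between DMSO libraries, so these values set no least size of a change. On the scale of the normalized count + 1, the limma confidence interval was 0.0509-fold to 0.818-fold for Cdkn2b. For Cdkn2a it was 0.0879-fold to 1.18-fold, which includes no change. Such intervals depend on the count added, and they set no least size of a change either. The log2 fold change of Cdkn2b was -2.91 with 0.5 added and -1.05 with 5 added. Neither gene passed the test (adjusted p = 0.0878 for Cdkn2b and 0.189 for Cdkn2a). Without the third DMSO library the adjusted p was 0.00721 for Cdkn2b and 0.0353 for Cdkn2a, but that library is the DMSO library with no read of either gene, so these values follow from leaving it out and are no support for a change.

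Ccnd2 (ENSMUSG00000000184) encodes cyclin D2, the D-type cyclin prominent in gonads and lymphoid cells. It was at 1252, 1461 and 616 normalized counts in DMSO and 3306, 2445 and 2407 in C89 libraries. Every C89 library was above every DMSO library, with the third DMSO library lowest and the first C89 library highest. Means were 1109 ± 439.8 and 2719 ± 509 (n = 3 each), a ratio of 2.45. The log2 fold change was 1.37 (SE 0.24, adjusted p = 0.00160). It was 0.99 without the third DMSO library and stayed past the threshold (adjusted p = 0.00504), as it did with the second and the third C89 libraries combined (1.44, adjusted p = 0.0117).

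Ccnd1 (ENSMUSG00000070348) encodes cyclin D1, which mitogens induce through ERK signalling and which is degraded after phosphorylation by GSK3B. Its normalized counts were 4008, 4246 and 1594 in DMSO and 9438, 5538 and 5606 in C89 libraries. The same 2 libraries stood out as for Ccnd2, the third DMSO library as low and the first C89 library as high. Means were 3283 ± 1467 and 6860.3 ± 2232 (n = 3 each), a ratio of 2.09, and the log2 fold change was 1.14 (SE 0.30, adjusted p = 0.0148). The call did not hold without the second DMSO library (adjusted p = 0.0926). Nor did it hold without the third DMSO library (0.69, adjusted p = 0.0597), the first C89 library (0.89, adjusted p = 0.0957), the second C89 library (adjusted p = 0.0618) or the third C89 library (adjusted p = 0.0782). The authors' deposited table likewise has an adjusted p of 0.0667 for Ccnd1, against 0.0052 for Ccnd2.

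Ccnd3 (ENSMUSG00000034165), the gene of cyclin D3, was at 2323, 2013 and 1752 in DMSO and 2351, 2402 and 2449 in C89 libraries. The highest DMSO library lay just under the lowest C89 library. The log2 fold change was 0.25 (SE 0.10, adjusted p = 0.0900), with an interval of 1.02-fold to 1.39-fold. It was 0.35 without the first DMSO library (adjusted p = 0.0169) and 0.10 with libraries scaled to equal total reads. Ccnd1 and Ccnd3 overlap protein-coding genes on the opposite strand, and whether reads were counted by strand is not stated. Lto1, which overlaps Ccnd1, was at 222 to 279.7 normalized counts over the 6 libraries. Bysl, which overlaps Ccnd3, was at 1319.7, 1152 and 1287 in DMSO and 1008, 1032 and 1008 in C89 libraries. Where exons overlap, reads of such a partner cannot be told apart from those of the cyclin, which bears most on Ccnd3. The part of such reads was not tested. Cdkn1a overlaps AC167363.2 on the opposite strand, which was not analysed here.

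**Figure D3:**
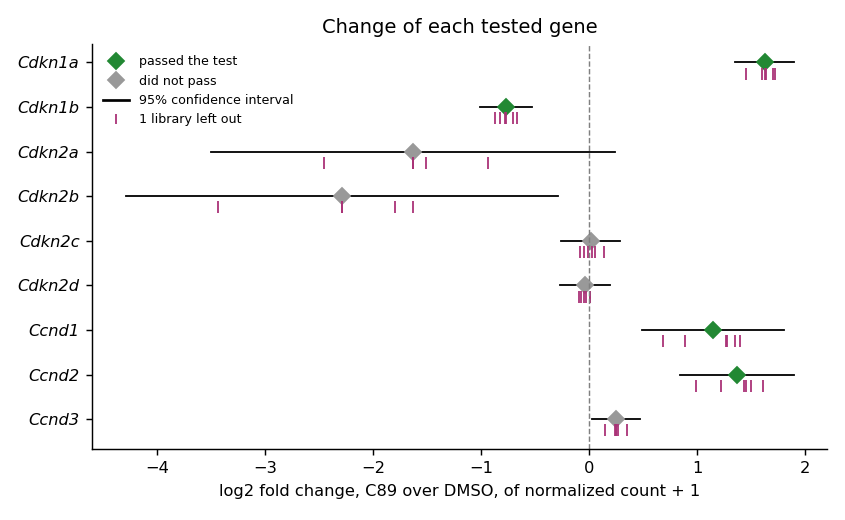
Log2 fold change of the 9 genes tested, C89 over DMSO, with 95% confidence intervals as lines and the values after leaving out each library in turn as ticks. Cdkn1a at 1.63, Ccnd2 at 1.37, Ccnd1 at 1.14 and Cdkn1b at -0.77 passed the test; the ticks of Ccnd1 run from 0.69 to 1.39 and those of Cdkn2b from -3.44 to -1.64.

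**Figure D4:**
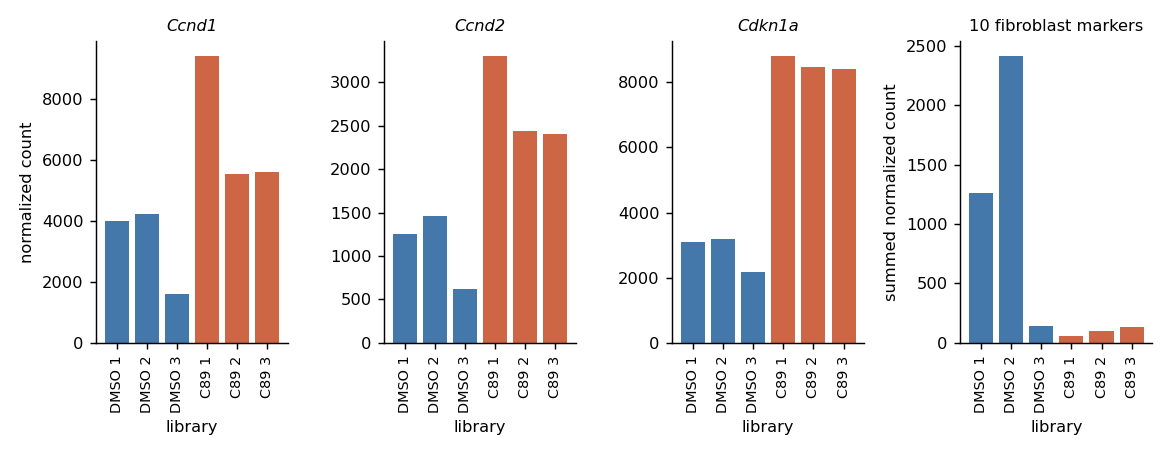
Normalized counts of Ccnd1, Ccnd2 and Cdkn1a and the summed normalized counts of 10 fibroblast markers in each library. The third DMSO library is the lowest DMSO library in all 4 panels, and the fibroblast sum is low in the C89 libraries, where the 3 genes are high.

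In the third DMSO library, Ccnd1, Ccnd2 and Cdkn1a were at their lowest and the fibroblast markers summed to 138. In the C89 libraries these genes were higher, and the fibroblast markers summed to 57.6, 95.5 and 135. The part of these markers in the changes was not tested. Of the 12 mast cell markers 7 were tested and 5 rose as well, and the part of these markers was not tested either. Without the third DMSO library, the direction of each of the 4 changes was the same. It could not be otherwise, since the values of the groups did not overlap for these genes.

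Within the D-type cyclins, the share of Ccnd2 in the summed level per kilobase of exon was 10.7%, 12.1% and 10.8% in DMSO and 13.4%, 15.2% and 14.8% in C89 libraries. That of Ccnd3 was 24.0 ± 8.01% and 14.1 ± 3.40% (n = 3 each). Neither share overlapped between the groups (exact permutation p = 0.1 for each, 0.25 adjusted over the 10 shares). The share of Ccnd1 was 64.8 ± 7.60% and 71.4 ± 4.33%, with overlapping ranges (exact permutation p = 0.4, 0.5 adjusted).

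The summed levels of the D-type cyclins and of the CIP/KIP genes were both higher in the C89 libraries. Per kilobase of exon, the D-type cyclins summed to 1046 ± 384 normalized counts in DMSO and 2019 ± 523 in C89 libraries, the CIP/KIP genes to 1099 ± 123 and 2591 ± 50.6, and the INK4 genes to 478 ± 29.8 and 463 ± 34.0 (n = 3 each). The ratio of the cyclin sum to the sum of all inhibitors was 0.768, 0.758 and 0.429 in DMSO and 0.852, 0.564 and 0.566 in C89 libraries. The ranges overlapped, and the difference of the means was 0.0090 (exact two-sided permutation p = 1.0). That difference rested on single libraries: leaving out the third DMSO library gave -0.102 and leaving out the first C89 library gave -0.0866. The ratio of the cyclin sum to the CIP/KIP sum alone was 0.933 ± 0.265 in DMSO and 0.777 ± 0.186 in C89 libraries (n = 3 each, exact permutation p = 0.4). These sums and ratios, and the libraries left out for them, were chosen after the values had been seen.

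Per kilobase of exon, Cdkn1a was the highest of the 10 genes in both groups, at 792 ± 156 in DMSO and 2412 ± 62.2 in C89 libraries. Ccnd1 followed, at 697 ± 312 and 1457 ± 474; the ranges of Cdkn1a and Ccnd1 overlapped in DMSO and not in C89 libraries. Cdkn1b, at 307 ± 42.6, came next in DMSO with Cdkn2d, at 303 ± 17.0, and these 2 did not differ beyond their spread. Ccnd3, at 231 ± 32.6, Cdkn2c, at 167 ± 26.7, and Ccnd2, at 118 ± 46.7, followed, with overlapping ranges for the last 2. In C89 libraries, Ccnd2 was at 289 ± 54.1, and its range overlapped those of Cdkn2d, at 295 ± 21.6, and Ccnd3, at 274 ± 5.58. Cdkn1b, at 179 ± 14.7, stood beside Cdkn2c, at 168 ± 12.4, also with overlapping ranges. Lengths are of all annotated exons of a gene, so that genes with long alternative exons come out too low.

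The profile over the 6 libraries most like that of Cdkn1a, among 10483 genes with a mean of at least 50, belonged to Aff3, a gene of the AF4 family of nuclear factors, at a root mean square distance of 0.0736 on the log2 scale after centring. The lysosomal protease gene Ctsd (0.101) and the ferritin gene Fth1 (0.114) were next. Nearest to Cdkn1b were Zbtb8a (0.0238), the deubiquitinase gene Usp2 (0.0300) and Acsbg1 (0.0326), an acyl-CoA synthetase gene. Aff3 went from 697 ± 156 to 1954 ± 85.8 normalized counts and Zbtb8a from 193 ± 28.4 to 110.3 ± 10.5 (n = 3 each).

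Of 23 genes of the pathway the members act in, from the CDKs to E2F, 5 rose and 2 fell, and the median log2 fold change was 0.06. Over all genes tested, 26.1% were called, 12.5% as higher and 13.6% as lower. The cyclin E genes, whose products activate CDK2, were the most changed. Ccne1 was at 663, 465 and 399.6 normalized counts in DMSO and 795, 1095 and 1116 in C89 libraries, a log2 difference of 0.99 (SE 0.17, limma adjusted p = 0.00149). Ccne2 went from 653 ± 157 to 1179 ± 120.2 (0.87, SE 0.14, adjusted p = 0.00107). Without the second DMSO library their adjusted p was 0.0682 and 0.0514. The kinases of the D-type cyclins went apart: Cdk6 rose from 1240.04 ± 90.9 to 1883 ± 288 (0.59, adjusted p = 0.00211), and Cdk4 fell from 4881 ± 244 to 4048 ± 355 (-0.27, adjusted p = 0.0414). Leaving out any 1 of the 6 libraries ended the call of Cdk4, with adjusted p from 0.0718 to 0.12, and so did edgeR (adjusted p = 0.0512). Tfdp1, which encodes the partner that E2F proteins need to bind DNA, rose with 0.41 (adjusted p = 0.00529, and 0.0600 without the second DMSO library). Rb1, the gene of the retinoblastoma protein, also rose (adjusted p = 0.0110; 0.0582 without the second C89 library and 0.105 with scaling to equal total reads), and its relative Rbl1 fell with -0.32 (adjusted p = 0.0252, and up to 0.101 without the second or the third DMSO or the second or the third C89 library). For the 8 E2f genes the limma adjusted p ran from 0.11 for E2f2, at 543 ± 73.0 and 683 ± 119, to 0.991 for E2f6, and E2f1 was at 709 ± 54.0 and 607 ± 92.7 (adjusted p = 0.186). With the second and the third C89 libraries combined, neither Cdk4 nor Rbl1 was called. Without the second DMSO library 2 genes of this list were called, and without the second C89 library 4.

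Of 24 transcriptional regulators of the members, 3 rose and 5 fell, with a median of -0.16, beside 26.1% called over all genes tested. Trp53, the gene of p53, rose from 2128 ± 156 to 3199 ± 389, by 0.58 on the log2 scale (SE 0.10, limma adjusted p = 0.00150). All 3 C89 libraries were above the DMSO libraries. Sp1, whose product binds GC boxes, was at 1809, 2148 and 2970.1 in DMSO and 1385, 1225 and 1263 in C89 libraries (-0.81, SE 0.14, adjusted p = 0.00164; 0.0552 without the second DMSO library). Foxo3 and Foxo4, factors known to activate Cdkn1b, fell with -0.47 and -0.45 (adjusted p = 0.0123 and 0.0211), and Foxo1 was at 441 ± 49.0 and 364 ± 14.5 (adjusted p = 0.104). The fall of Foxo3 was not called without the second or the third DMSO or the second or the third C89 library, nor that of Foxo4 without any 1 library but the first DMSO library (adjusted p up to 0.119 for both). Ets1, at -0.55, and Zbtb17 also fell, and Klf6, at 0.37, and Cbx7, at 0.46, also rose, each called in at most 2 of the 6 fits that left out 1 library. Klf6 and Cbx7 were not called with scaling to equal total reads (adjusted p = 0.163 and 0.146). Klf4, a factor known to activate Cdkn1a, had the pattern of Cdkn2a and Cdkn2b, with 6.67, 7.97 and 0 normalized counts in DMSO libraries and no read in C89 libraries (adjusted p = 0.113). The list had 2 calls without either of the near-alike C89 libraries, 3 without the second or the third DMSO library or with the second and the third C89 libraries combined, and 5 without the first C89 library.

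Of 20 genes that act in the turnover of the inhibitors and D-type cyclins, 19 were tested, 1 rose and 5 fell, with a median of -0.12. The share called over all genes tested was 26.1%. Fzr1, which encodes the CDH1 activator of the anaphase-promoting complex, was at 2236, 2213 and 2089 in DMSO and 1238, 1132 and 1185 in C89 libraries. The groups lay far apart (a log2 difference of -0.88, limma adjusted p = 3.12e-05), and Fzr1 stayed called without any 1 library (adjusted p at most 0.0136). Usp2, the deubiquitinase gene near Cdkn1b in profile, fell from 171 ± 24.6 to 98.4 ± 5.83 (-0.78, adjusted p = 0.00399; 0.0505 without the second DMSO library). Dtl and Cul4b, whose products form a ligase for p21, fell with -0.42 and -0.36 (adjusted p = 0.0243 and 0.0301), and Fbxo31, a receptor for cyclin D1, rose with 0.44 (adjusted p = 0.0141; 0.0708 with scaling to equal total reads). Ubac1, of a ligase for p27, also fell and was called in no fit that left out 1 library. Cul4b and Fbxo31 lost their calls without the second or the third DMSO library and without either near-alike C89 library, and Dtl without these or the first C89 library (adjusted p up to 0.145 for the 3). Skp2, which targets p27, was at 308 ± 93.6 and 323 ± 22.0 (adjusted p = 0.709). Calls in the list came to 1 when the second DMSO library was left out. They came to 2 without the third DMSO library, without either of the near-alike C89 libraries and with that pair combined.

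Of 20 genes of S phase and mitosis, 3 rose and 9 fell, with a median of -0.21, beside 26.1% called over all genes tested. Those that rose were Pcna, the DNA polymerase clamp gene, at 2777 ± 476 and 4203 ± 348 (0.61, limma adjusted p = 0.00235; 0.0669 without the second DMSO library), the ribonucleotide reductase gene Rrm2, at 0.54, and the helicase gene Mcm3, at 0.36. Rrm2 and Mcm3 were not called without the second or the third DMSO library or either near-alike C89 library (adjusted p up to 0.147), nor Mcm3 with scaling to equal total reads (0.136). The mitotic kinase genes Aurkb, at 1965 ± 181 and 1289 ± 148 (-0.61, adjusted p = 0.00136), Aurka, at -0.58, and Plk1, at -0.47, fell, as did Cdc20, at -0.42, and Ccnb2. These 5 stayed called without any 1 library. Mki67, Mcm4, Mcm5 and Tyms also fell, with -0.49 to -0.36, each called in at most 2 of the 6 fits that left out 1 library. Calls in the list numbered 6 when the second DMSO, the third DMSO or the second C89 library was left out, and 7 when the third C89 library was.

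**Figure D5:**
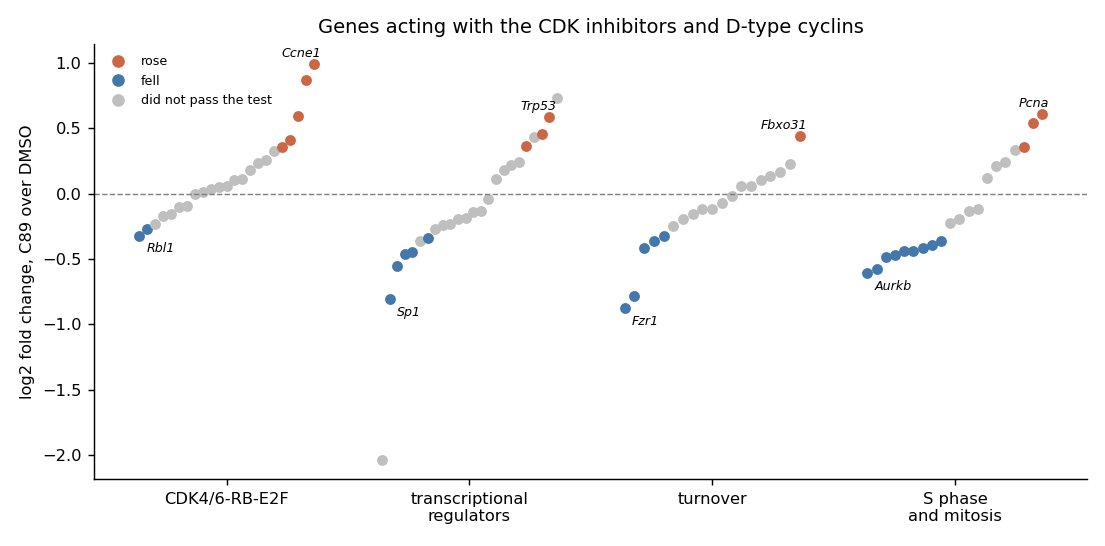
Log2 fold change, C89 over DMSO, of each tested gene in 4 lists of genes that act with the members, ordered by value within a list; coloured points passed the test, and the first and last of these in each list are named. The cyclin E gene Ccne1, at 0.99, is the highest point and Fzr1, at -0.88, the lowest of those that passed; the grey point at -2.03 is Klf4, which had few reads.

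With libraries scaled to equal total reads, the median over genes averaging at least 50 normalized counts moved from -0.02 to -0.17, and 27.0% of all calls were higher in place of 47.8%. Under that scaling, the CDK and E2F list had 4 genes higher and 4 lower, the regulators 1 and 11, the turnover genes 9, all lower, and the S phase and mitosis genes 2 and 11. Cdkn1a was then at 1.48, Ccnd2 at 1.22, Ccnd1 at 0.996 and Cdkn1b at -0.92, all past the threshold.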

How the data were processed

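Trizol RNA was made into mRNA libraries read from both ends, per the labels' protocols, and the submitters' processing notes list HISAT2 and DESeq2 with no version. The sources used here do not give the genome build, the annotation or the counting tool. Values deposited for each library are a signal, read counts over a size factor: all 119020 values above 0 (100%) came out as whole reads within 0.01 read. Log2 fold changes and adjusted p-values credited to the authors' deposited table are theirs, per the file headers. One gene with a text cell and 6 unnamed columns of values were not used.

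limma 3.58.1 (R 4.3.3) was fitted with a mean-variance trend on log2(value + 1) for 18954 genes averaging at least 1, comparing the groups with no other term, with Benjamini-Hochberg adjustment over all genes and a threshold of 0.05. edgeR 4.0.16 (4652 genes called) and DESeq2 1.42.0 (4529) on the recovered reads were alternatives. The procedure was tested on simulated data. Genes of few reads are limited most by the second C89 library, of 7772060 reads.

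All members are named. In the 4 lists of related genes the called genes are named, with log2 fold changes for at most 4 in each direction by p, and other genes named there were chosen after their values were seen. Profiles were compared for the called member with the lowest p in each direction. Members and lists were chosen with earlier results of these data known. Of the table's identifiers, 54164 were in GENCODE M21, the source of exon lengths. Figures were drawn with matplotlib 3.10.9.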

Additional observations from a re-analysis of the deposited data

How the results depend on the processing

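Cdkn1a, Cdkn1b and Ccnd2 kept their direction and passed the threshold in each of 16 alternatives: other tools, scalings, filters and pseudocounts, a replicate block, each library left out and the second and the third C89 libraries combined; their log2 fold changes ran from 1.45 to 1.72, from -0.92 to -0.67 and from 0.99 to 1.61. With 1 library left out the direction could not change, since the groups did not overlap for these genes. Ccnd1 passed the threshold in 10 of 16 and missed it also in DESeq2 (1.06, adjusted p = 0.0643). Cdkn2c, at 0.01, was on the other side of 0 with edgeR (-0.0071), TMM factors (-0.0025), equal total reads (-0.14) and the combined C89 libraries (-0.0068), and ran from -0.087 to 0.14 without 1 library; Cdkn2d, at -0.04, ran from -0.096 to 0.0057. The share of Cdkn2d in the INK4 level differed by 0.224 percentage points, by -0.374 when not divided by length and by -2.34 to 2.17 without 1 library. Cdkn2a and Cdkn2b were not tested at a minimum mean of 5, and DESeq2 gave them no adjusted p. Members called numbered 3 to 5 without 1 library.

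Of all genes 4946 were called, 2303 to 4711 without 1 library and 3297 with the C89 pair combined. Without 1 library, calls numbered 2 to 8 in the CDK and E2F list (7 in all), 2 to 9 among regulators (8), 1 to 6 among turnover genes (6) and 6 to 12 in the S phase and mitosis list (12). With the C89 pair combined they were 3 among regulators and 2 among turnover genes. The causes were not tested. Replicate numbers are shared by the groups, but same-numbered libraries did not deviate together (correlations of -0.19, -0.18 and 0.02 over 10483 genes). With the replicate block 4092 genes and the same 4 members were called, with Ccnd1 at an adjusted p of 0.00168, while Cdk4 and Rbl1 were not called.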
